A study of Mus musculus with 55 samples.

Results

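The genes described here are 9 that mark the epithelium lining the bile ducts: Krt7, Krt19, Epcam, Prom1, Muc1, Sox9, Spp1, Sctr and Cftr. They were chosen by symbol, with earlier results of these data known, and make up 9 of the 24478 gene symbols measured. Where a symbol had several transcript rows, the most abundant by its mean across libraries was read. RNA was sequenced from 10 cell populations sorted by flow cytometry from livers of C57B/L6 mice, giving 27 normal libraries and 28 that followed partial hepatectomy (PH, the surgical removal of liver lobes, after which the remainder regrows). The 3 duct sorts are titled cBEC (clonal biliary epithelial cells; 4 normal and 2 PH libraries), BEC (biliary epithelial cells; 4 and 2) and NPD (non progenitor ducts; 2 and 2). The 7 non-duct sorts are Thy1 cells (2 and 2), hepatocytes (HC; 4 and 4), endothelial cells (EC; 2 and 3), liver sinusoidal endothelial cells (LSEC; 3 and 5), Kupffer cells (KC; 2 and 3), hepatic stellate cells (HSC; 2 and 3) and blood cells (2 and 2).

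The labels give neither the surface antigens used to sort each population nor the mice's age or sex, the time after surgery, the number of animals pooled or a sequencing batch. Epcam, Prom1 and Muc1 encode surface proteins, and the labels do not say whether any of them formed a gate. Nothing says that replicates came from separate mice, so p-values measure only the spread between these libraries, which may be technical. For PH cBEC 1 the title and the treatment label (normal) disagree, and the title was followed.

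Cholangiocytes, the cells of the duct wall, form a simple epithelium that modifies bile by secreting bicarbonate and fluid. Secretin from the gut binds its receptor Sctr on these cells and raises cyclic AMP, which opens the chloride channel Cftr and drives bicarbonate exchange. The transcription factor Sox9 is switched on in the developing ducts and kept there in the adult, and keratins 7 and 19 build intermediate filaments that separate duct cells from hepatocytes in tissue sections. Keratins 7 and 19 are also made by mesothelium, the sheet of cells covering the liver surface.

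Promoter windows of 4 of the genes, each from 250 bases before to 50 after the transcript start, are shown for the contrasts that the values turn on. Muc1 and Prom1 were among the genes with low values in NPD, Krt7 was the gene with its highest values there, and Cftr differed in its response to PH between duct sorts. Capitals mark a match to 1 of 5 motifs searched on both strands.
Muc1, chr3:89228806-89229105, plus strand: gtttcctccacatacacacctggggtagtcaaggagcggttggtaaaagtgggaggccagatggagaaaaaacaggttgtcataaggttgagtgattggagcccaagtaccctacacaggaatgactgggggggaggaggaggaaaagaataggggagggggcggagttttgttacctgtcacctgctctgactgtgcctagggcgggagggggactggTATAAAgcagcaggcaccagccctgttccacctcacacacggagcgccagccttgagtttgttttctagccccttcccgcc
Prom1, chr5:44101687-44101986, minus strand: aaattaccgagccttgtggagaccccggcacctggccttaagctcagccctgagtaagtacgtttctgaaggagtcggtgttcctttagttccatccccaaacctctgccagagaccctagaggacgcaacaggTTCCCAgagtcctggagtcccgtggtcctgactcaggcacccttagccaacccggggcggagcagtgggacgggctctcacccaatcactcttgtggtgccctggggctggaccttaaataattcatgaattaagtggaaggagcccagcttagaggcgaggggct
Krt7, chr15:101412153-101412452, plus strand: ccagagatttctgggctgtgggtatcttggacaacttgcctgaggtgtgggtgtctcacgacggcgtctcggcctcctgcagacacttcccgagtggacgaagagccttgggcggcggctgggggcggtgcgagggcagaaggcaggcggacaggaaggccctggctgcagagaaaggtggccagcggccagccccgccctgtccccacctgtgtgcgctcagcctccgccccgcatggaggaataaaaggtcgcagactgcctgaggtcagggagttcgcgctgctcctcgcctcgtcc
Cftr, chr6:18170437-18170736, plus strand: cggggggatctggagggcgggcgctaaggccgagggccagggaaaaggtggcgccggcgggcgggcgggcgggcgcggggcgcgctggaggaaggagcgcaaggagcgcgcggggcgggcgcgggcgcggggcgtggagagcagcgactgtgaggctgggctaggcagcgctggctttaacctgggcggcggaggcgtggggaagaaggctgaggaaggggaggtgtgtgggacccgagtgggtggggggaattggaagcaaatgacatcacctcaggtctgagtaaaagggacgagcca
The sequences are from RefSeq on GRCm38.p6, a build other than the mm9 of the expression table, and run 5′ to 3′ along the gene's strand. The ONECUT core was searched as ATTGAT and occurred in 7.54% of all 32851 promoter windows of the same length, and the SOX core, searched as AACAAT, in 10.7%. The RBPJ core of Notch signalling was searched as TGGGAA and occurred in 25.6%, and the grainyhead-like palindrome, searched as AACCNGGTT, in 0.271%. The TATA box was searched as TATAAA and occurred in 13.6%. In the Muc1 window the TATA box began at −31 from the start, and the Prom1 window held the RBPJ core on its minus strand, beginning at −116. A Spp1 window, not printed, held a TATA box at −211. No letters of the 5 motifs were found in the Krt7 and Cftr windows, and no match overlapped another. Of the 9 genes, 6 had promoter entries, with 8 windows between them.

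All 9 genes were detected in all 16 duct libraries, where the 144 values ran from 2.49 to 20522 FPKM (a fragment level scaled to the length of the transcript and the size of the library). In the 35 libraries of HC, EC, LSEC, KC, HSC and blood, 51 of 315 values were listed at 0 and the highest was 485 FPKM, for Spp1. Of these zeros, 9 were in HC. Values of the 9 genes in HC were listed only to the nearest 0.01 FPKM, unlike those of the other sorts, so a 0 there can be a rounded value. The Thy1 sort held intermediate levels, with 0 of 36 values at 0. Each duct sort was compared with the mean of the 7 non-duct sorts of the same treatment, with limma on log2(FPKM + 1) over all genes and Benjamini-Hochberg adjustment. All 9 genes were higher at adjusted p under 0.05 in cBEC, BEC and NPD, in both treatments. Of all tested genes, 60.2%, 60.3% and 40.1% were called in either direction for cBEC, BEC and NPD in normal liver, and 49.4%, 50.1% and 41.0% after PH. The share called higher was 39.5% for cBEC, 38.6% for BEC and 23.8% for NPD in normal liver, and 30.3%, 30.6% and 29.5% after PH. The median log2 difference of the 9 genes was 6.60 in cBEC, 6.30 in BEC and 3.51 in NPD in normal liver, against 0.24, 0.22 and 0.06 over all genes, and after PH it was 6.28, 6.18 and 3.86 against 0.11, 0.13 and 0.25. On this scale the change of a weakly expressed gene comes out too small.

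**Figure D1:**
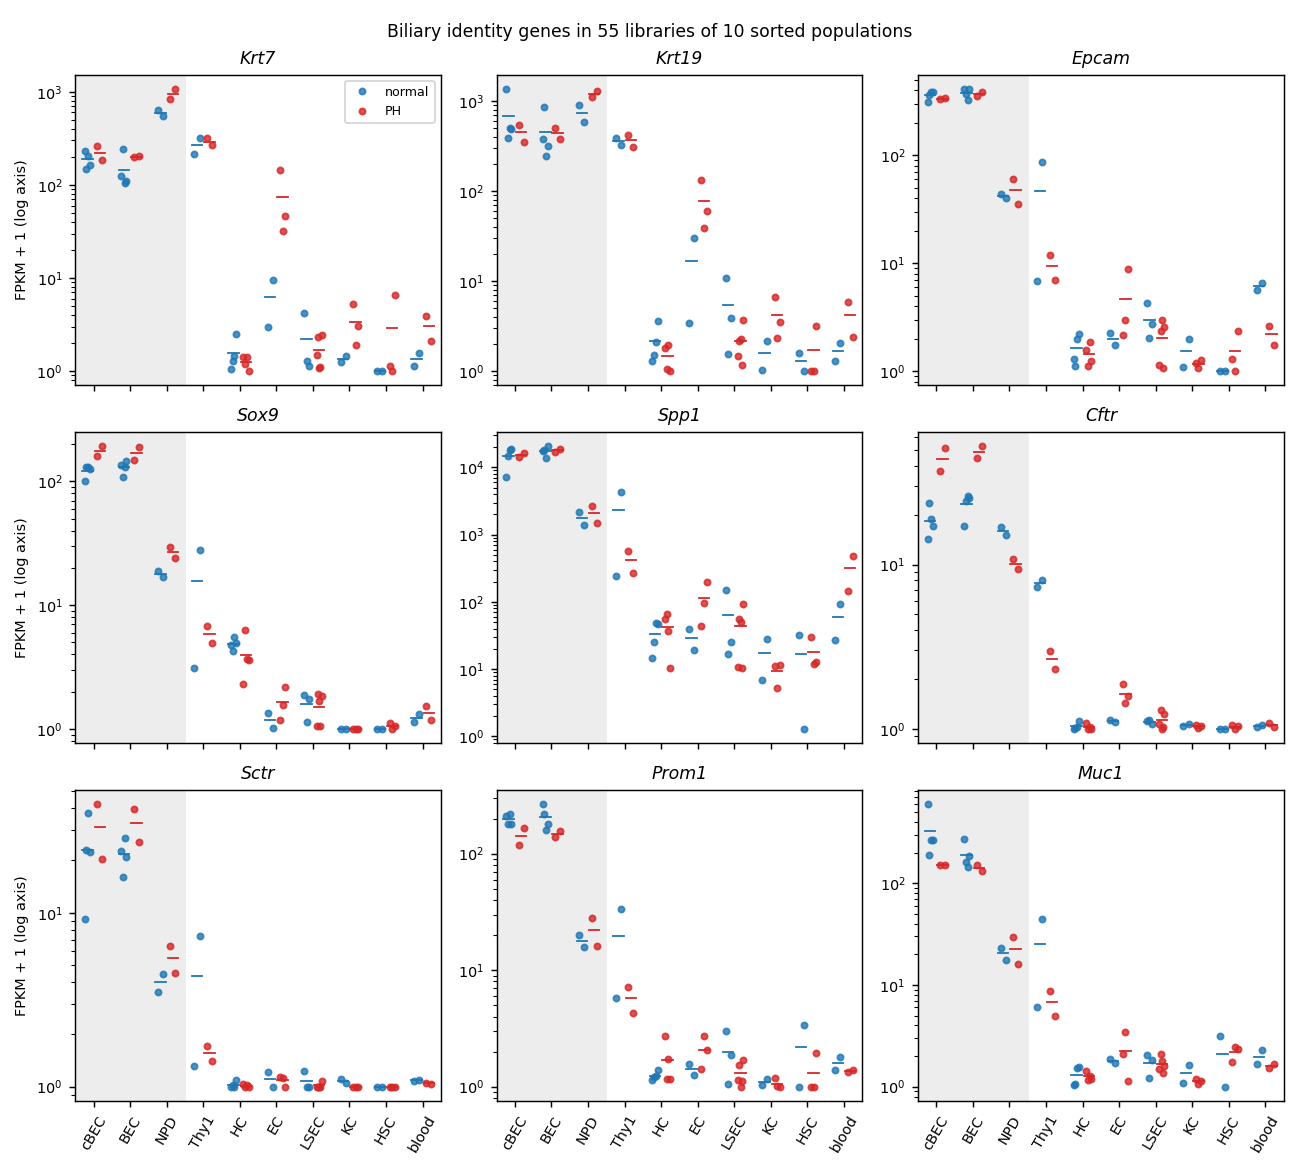
FPKM + 1 on a log axis for each of the 9 genes (panels) by sorted population, with 1 point per library, blue for normal and red for PH, and a bar at the group mean. The grey band holds the 3 duct sorts: Krt7 and Krt19 have their highest means in NPD, whereas the other 7 are highest in cBEC or BEC.

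Both keratins had their highest means in NPD rather than in the sorts named biliary. Krt7 (keratin 7; NM_033073, mm9 chr15:101242834-101258237) read 641 and 547 FPKM in the 2 normal NPD libraries, against 232, 148, 203 and 164 in normal cBEC and 123, 239, 104 and 110 in normal BEC. Every NPD library lay above every cBEC and BEC library, and the cBEC and BEC values overlapped. The log2 difference was −1.68 (SE 0.24, limma adjusted p = 0.00167) for cBEC minus NPD and −2.12 (SE 0.35, limma adjusted p = 0.00191) for BEC minus NPD. After PH, Krt7 read 826 and 1078 FPKM in NPD, 258 and 183 in cBEC and 200 and 201 in BEC, again with no overlap between NPD and the others. The mean in NPD was 4.31 times that in cBEC and 4.75 times that in BEC.

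Krt19 (keratin 19; NM_001313963, mm9 chr11:100002126-100005013), a keratin used to stain ducts, read 900 and 593 FPKM in normal NPD, 1383, 394, 506 and 487 in normal cBEC and 383, 857, 247 and 319 in normal BEC. The normal values overlapped because library 1 of cBEC and library 2 of BEC stood far above the others of their groups. Neither comparison with NPD passed the test, at log2 differences of −0.27 (SE 0.50, limma adjusted p = 0.717) for cBEC and −0.86 (SE 0.47, limma adjusted p = 0.185) for BEC. The 95% interval for cBEC minus NPD, −1.44 to 0.90, is wide enough to hold a change of either sign. After PH, Krt19 read 1103 and 1287 FPKM in NPD, 552 and 351 in cBEC and 499 and 382 in BEC, so that NPD stood apart. These PH differences, −1.44 for cBEC (SE 0.25, limma adjusted p = 0.00888) and −1.45 for BEC (SE 0.18, limma adjusted p = 0.00139), passed the test. They did not pass it with either PH NPD library left out (adjusted p 0.0956 and 0.132 for cBEC, 0.0537 and 0.0713 for BEC). How the authors' counting shared reads between related keratins is not recorded, which bears on both genes.

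The epithelial surface genes had the reverse order. Epcam (epithelial cell adhesion molecule; NM_008532, mm9 chr17:88035319-88050467) read 307, 357, 388 and 382 FPKM in normal cBEC, 409, 365, 321 and 412 in BEC, and 42.8 and 39.3 in NPD. No cBEC or BEC library came near an NPD library, and the mean in cBEC was 8.72 times that in NPD. After PH the values were 331 and 335 in cBEC, 352 and 381 in BEC, and 58.9 and 34.7 in NPD.

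Prom1 (prominin 1, or CD133, of membrane protrusions; NM_001163578, mm9 chr5:44392682-44486007) read 210, 180, 216 and 178 FPKM in normal cBEC, 265, 218, 159 and 178 in BEC, and 19.0 and 14.9 in NPD. The mean in cBEC was 11.6 times that in NPD, and the groups did not overlap. Muc1 (mucin 1, a glycoprotein of the luminal membrane; NM_013605, mm9 chr3:89032978-89037303) read 596, 188, 263 and 265 FPKM in normal cBEC, 270, 160, 142 and 184 in BEC, and 22.3 and 16.5 in NPD. Its mean in cBEC was 16.9 times that in NPD, a ratio raised by library 1 of cBEC. After PH, Prom1 read 117 and 166 in cBEC against 27.2 and 15.1 in NPD, and Muc1 read 149 and 151 in cBEC against 28.5 and 15.0 in NPD.

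Sox9 (NM_011448, mm9 chr11:112643524-112649071) read 99.2, 131, 130 and 126 FPKM in normal cBEC, 135, 108, 130 and 144 in BEC, and 17.9 and 15.9 in NPD. Every cBEC and BEC library lay far above both NPD libraries, with a log2 difference for cBEC minus NPD of 2.77 (SE 0.19, limma adjusted p = 8.93e-05). Spp1 (osteopontin, a secreted phosphoprotein; NM_009263, mm9 chr5:104864130-104870072) was the most abundant of the 9 in every duct library, at 7313, 14723, 18394 and 18530 FPKM in normal cBEC, 13817 to 20522 in BEC, and 2177 and 1374 in NPD. Library 1 of cBEC was the lowest of its group for both genes.

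The secretin pathway genes were the lowest of the 9 in the duct sorts, and the 2 differed from each other. Sctr (secretin receptor; NM_001311077, mm9 chr1:121903557-121960109) read 8.24, 21.9, 36.6 and 21.3 FPKM in normal cBEC, 21.8, 15.0, 25.9 and 19.9 in BEC, and 2.49 and 3.47 in NPD, without overlap. Its cBEC call was lost when either normal NPD library was left out (limma adjusted p 0.105 and 0.0558 against 0.0118). Cftr (NM_021050, mm9 chr6:18120687-18272769) read 13.2, 22.5, 17.9 and 16.1 FPKM in normal cBEC, 16.1, 23.3, 25.1 and 24.4 in BEC, and 15.9 and 14.2 in NPD. In normal liver Cftr therefore overlapped between cBEC and NPD, with a log2 difference of 0.17 (95% interval −0.36 to 0.71, limma adjusted p = 0.606). For BEC minus NPD it was 0.51 (95% interval 0.00 to 1.02, limma adjusted p = 0.102), although every BEC library lay above both NPD libraries.

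In all, 7 of the 9 genes were called in normal cBEC minus NPD, 6 higher and Krt7 lower, where 29.7% of 13757 genes were called. The same 7 genes were called in normal BEC minus NPD, where 38.8% of 13541 genes were called. After PH all 9 were called in both comparisons, 7 higher and the 2 keratins lower, where 44.8% and 57.6% of genes were called. Cftr after PH read 35.9 and 50.3 FPKM in cBEC, 43.3 and 51.3 in BEC and 9.78 and 8.42 in NPD, a log2 difference of 2.11 for cBEC minus NPD (SE 0.21, limma adjusted p = 0.00172). With PH NPD library 2 left out, 4 of the 9 genes were called in PH cBEC minus NPD and 1260 genes in place of 5845. In bulk RNA, fewer duct cells in a sort and less RNA per duct cell cannot be told apart.

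**Figure D2:**
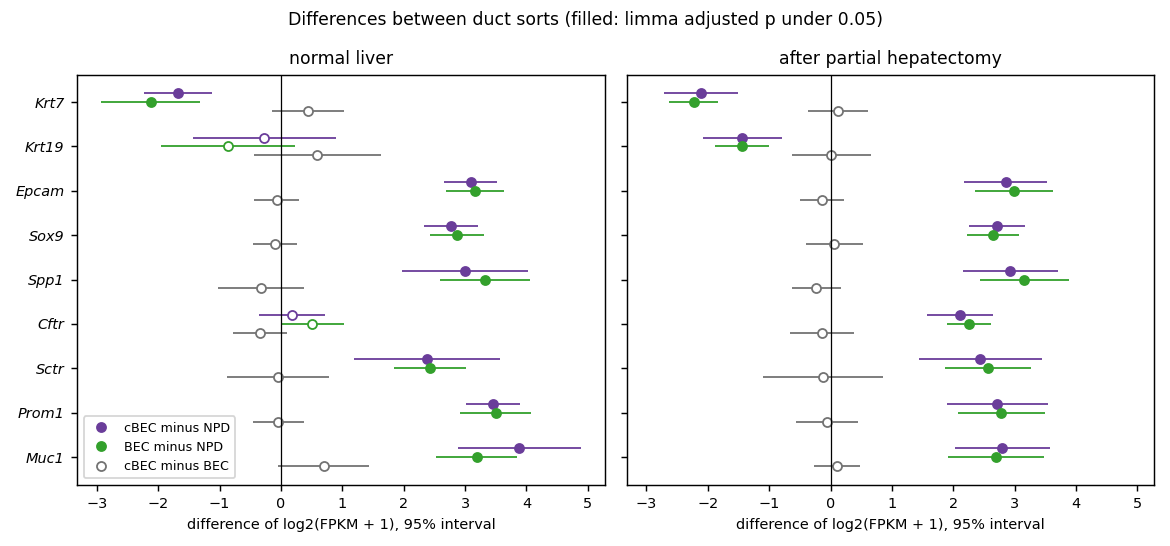
Log2 differences in log2(FPKM + 1) between duct sorts with 95% intervals, for normal liver (left) and after PH (right); purple is cBEC minus NPD, green BEC minus NPD and grey cBEC minus BEC, and filled points passed adjusted p under 0.05. All grey points are open, Krt7 lies left of 0 in both panels, and Cftr lies near 0 in normal liver and at 2.11 and 2.26 after PH.

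Between cBEC and BEC, 0 of the 9 genes passed the test in either treatment, where 0.0% of genes passed. By limma, 1041 of 12642 genes in normal liver and 206 of 12072 after PH had an unadjusted p under 0.05. The largest of the 9 differences in normal liver was Muc1, 0.69 higher in cBEC (95% interval −0.05 to 1.43), and that of Epcam was −0.07 (95% interval −0.44 to 0.30). After PH all 9 differences lay between −0.23 (Spp1) and 0.12 (Krt7). The interval for Sctr after PH, −1.11 to 0.86, was the widest, so these libraries do not show that the sorts had the same levels.

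Library 1 of normal cBEC stood apart from libraries 2 to 4. It had the highest Krt19, Muc1 and Krt7 of its group and the lowest Spp1, Sctr, Sox9, Cftr and Epcam. It also had the highest summed level of 9 mesothelial markers, at 751 FPKM against 195, 234 and 270. Its sums were also the highest of the group for portal fibroblast (298 against 73.9 to 103), endothelial (290 against 37.8 to 117), stellate (590 against 325 to 334) and Kupffer cell markers (193 against 88.8 to 162), but not for sinusoidal endothelial markers (163 against 14.5 to 184). The part of this in the gene values was not tested.

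Ratios to Epcam were also taken within each library. Such a ratio is free of the share of duct cells only for a gene that no other cell of the sort makes, which was not tested. Spp1 over Epcam was 23.8 to 48.5 in normal cBEC, 42.9 to 50.2 in normal BEC, 34.9 to 50.8 in normal NPD and 43.4 to 45.3 in PH NPD. Sox9 over Epcam was 0.32 to 0.37 in normal cBEC, 0.30 to 0.41 in normal BEC and 0.40 to 0.42 in normal NPD. Prom1 over Epcam was 0.47 to 0.68 in normal cBEC, 0.43 to 0.65 in normal BEC and 0.38 to 0.44 in normal NPD, and Sctr over Epcam was 0.027 to 0.094 in normal cBEC and 0.058 to 0.088 in normal NPD. Muc1 over Epcam was 0.53 to 1.94 in normal cBEC, 0.44 to 0.66 in normal BEC and 0.42 to 0.52 in normal NPD. The normal NPD range overlapped those of both cBEC and BEC for Spp1 and Sctr, and that of BEC alone for Sox9, Prom1 and Muc1. The mean Epcam level in normal cBEC was 8.72 times that in NPD, and in normal BEC 9.17 times.

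The keratins and Cftr gave NPD ratios outside the range of both. Krt7 over Epcam was 0.41 to 0.76 in normal cBEC, 0.27 to 0.65 in normal BEC, 13.9 to 15.0 in normal NPD and 14.0 to 31.1 in PH NPD. Krt19 over Epcam was 1.10 to 4.50 in normal cBEC and 15.1 to 21.0 in normal NPD. Cftr over Epcam was 0.042 to 0.063 in normal cBEC and 0.36 to 0.37 in normal NPD, and after PH 0.11 to 0.15 in cBEC and 0.17 to 0.24 in NPD. Krt19 was 2.50 to 5.96 times Krt7 in normal cBEC and 1.08 to 1.40 times in normal NPD.

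Mesothelial markers were far higher in NPD than in cBEC and BEC, as Krt7 was. The summed FPKM of 9 matched markers, among them Msln (mesothelin) and Upk3b (uroplakin 3b), was 9149 to 9976 in normal NPD, 5126 to 5905 in PH NPD, 195 to 751 in normal cBEC, 81.2 to 141 in normal BEC, 70.1 to 91.4 in PH cBEC and 47.6 to 57.3 in PH BEC. All 9 markers were lower in cBEC and BEC than in NPD in both treatments, and none was at 0 throughout a duct group. The 10 portal fibroblast markers also summed higher in NPD (893 to 1233 FPKM in normal liver) than in cBEC (73.9 to 298). So did the 10 stellate cell markers, at 3296 to 3833 FPKM in normal NPD and 325 to 590 in normal cBEC. The part of these cells in the keratin and Cftr levels of the NPD sort was not tested. With PH the marker sum in NPD was lower and the keratins read higher, but single markers differed. Igfbp6 read 2569 to 2955 FPKM in normal NPD and 632 to 856 in PH NPD. Upk3b, Gpm6a and Rspo1 were also lower without overlap. Upk1b read 511 to 706 FPKM and then 753 to 860, and Aldh1a2 was also higher without overlap. Msln, Wt1 and Lrrn4 overlapped. In normal BEC, library 2 had the highest keratins and the lowest marker sum. All 9 duct genes were present in NPD, 6 of them at means below those of cBEC and BEC without overlap in both treatments. The share of all genes without such overlap is not given here.

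**Figure D3:**
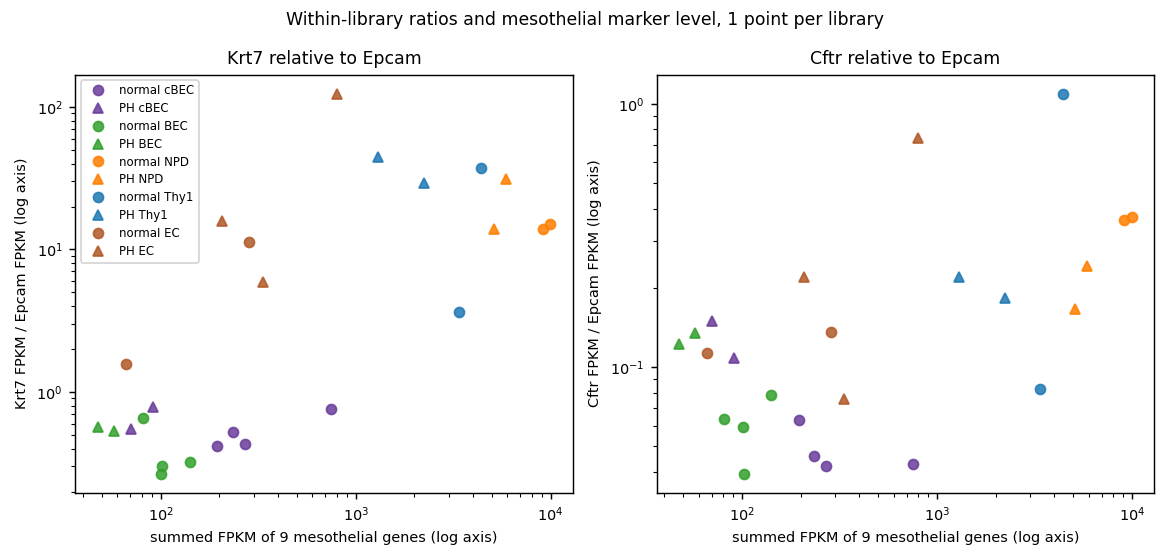
Krt7 over Epcam (left) and Cftr over Epcam (right) in each library, against the summed FPKM of 9 mesothelial markers, all on log axes; colours are the sorts and triangles the PH libraries. The NPD and Thy1 libraries lie at the right, and every NPD library has a Krt7 over Epcam ratio of at least 13.9.

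Outside the duct sorts, Thy1 cells (named for a surface glycoprotein of portal fibroblasts and other cells) had keratin levels within reach of the duct sorts. The other genes were lower there than in cBEC and BEC. In normal liver, however, the Thy1 mean exceeded the NPD mean for Epcam (45.9 against 41.1 FPKM), Spp1 (2292 against 1776), Sctr, Prom1 and Muc1. Krt7 read 216 and 315 FPKM in normal Thy1 and 318 and 264 after PH, and Krt19 read 390 and 328, then 424 and 311. Normal Thy1 library 2 stood apart from library 1, with Epcam at 86.0 against 5.78 FPKM, Sox9 at 27.1 against 2.09, Spp1 at 4340 against 244, Prom1 at 32.6 against 4.72 and Muc1 at 43.0 against 5.10. For Epcam, Sox9, Spp1, Sctr, Prom1 and Muc1 that library exceeded both normal NPD libraries. Spp1 over Epcam was 42.3 and 50.5 in those 2 libraries, within the range of the normal NPD libraries. Mesothelial markers summed to 3375 to 4417 FPKM in normal Thy1 and 1302 to 2229 after PH.

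In each treatment, every cBEC and BEC library lay above every non-duct library for 7 of the 9 genes, all but the keratins. Every NPD library lay above every non-duct library for Krt7, Krt19 and Cftr in normal liver, and for all 9 genes after PH. Normal Thy1 library 2 was the non-duct library above NPD for the other 6. The share of all genes set apart in these ways is not given here, so the counts describe the 9 genes only. Ordered by mean in normal liver, BEC and cBEC shared the top for the 7 genes other than keratins, without separating from each other, and Thy1 and NPD followed with overlapping libraries for 6 of them. For Cftr the order was BEC, cBEC, NPD and Thy1, with only NPD and Thy1 separated among neighbours. Krt7 ran NPD, Thy1, cBEC and BEC, with NPD separated from Thy1 and the rest overlapping, and Krt19 ran NPD, cBEC, BEC and Thy1 with every neighbour overlapping. After PH, BEC lay above cBEC without overlap for Epcam and Spp1, although neither difference passed the test.

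Among the remaining populations, the endothelial cell sort had the highest keratin levels. Krt7 read 1.96 and 8.40 FPKM in normal EC and 144, 30.8 and 45.8 in PH EC, and Krt19 read 2.42 and 29.3, then 131, 38.5 and 59.9. The PH libraries lay above the normal ones for both. Epcam was at 0.74 to 1.24 FPKM in normal EC and 1.16 to 7.81 after PH. Mesothelial markers summed to 66.1 and 285 FPKM in normal EC and to 803, 207 and 335 in PH EC, and the library with the highest sum had the highest Krt7 and Krt19. The part of those cells was not tested, and PH was not tested against normal in EC.

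Hepatocytes, which share an embryonic precursor with cholangiocytes, had Sox9 at 1.32 to 5.25 FPKM and Spp1 at 9.40 to 64.2 over their 8 libraries, and the other 7 genes at 2.60 or below. Spp1 was also present in blood cells, at 26.0 and 92.0 FPKM in normal and 145 and 485 in PH libraries. In that sort the leukocyte markers summed to 6181 to 6538 FPKM in normal liver and to 1043 to 2237 after PH. Its Kupffer cell markers summed to 1322 to 1722 and then 13174.5 to 22762, and its endothelial markers to 452 to 473 and then 1608 to 3520. Osteopontin is also made by leukocytes, but the part of any of these cells in the Spp1 level was not tested. Epcam read 4.68 and 5.60 FPKM in normal blood and 0.74 and 1.63 after PH. Sctr was at most 0.23 FPKM in any of these 6 sorts, and Cftr at most 0.86, in PH EC.

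Other biliary genes were read from 4 lists by role, against the 29.7% of all genes called in either direction in normal cBEC minus NPD and 44.8% after PH. Of 12 transcription factors of the biliary epithelium, 11 were higher in normal cBEC than in NPD and 0 lower, with a median log2 difference of 3.08 against 0.25 over all genes, and after PH the count was the same with a median of 2.55. Onecut1, which acts upstream of duct formation, averaged 96.6 ± 30.9 FPKM in normal cBEC (SD, n = 4) and 8.16 ± 6.95 in NPD (SD, n = 2). Elf3 averaged 155 ± 200 and 5.68 ± 2.16, Ehf 123 ± 23.3 and 11.4 ± 2.06, and Onecut2 69.0 ± 5.71 and 6.30 ± 1.77 FPKM. Elf3, Ehf and the Onecut genes encode DNA-binding factors of epithelia.

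Of 18 keratin, junction and adhesion genes of simple epithelia, 17 were tested and 16 were higher in normal cBEC than in NPD, with a median log2 difference of 2.93 against 0.25 over all genes and 29.7% of genes called. Cdh1, which encodes E-cadherin, averaged 559 ± 49.3 FPKM in cBEC (SD, n = 4) and 57.3 ± 7.34 in NPD (SD, n = 2), and the claudin Cldn4 averaged 153 ± 124 and 9.49 ± 6.99. The splicing factors Esrp1 and Esrp2 averaged 26.5 ± 3.41 and 31.5 ± 0.43 FPKM in cBEC and 1.87 ± 0.13 and 4.07 ± 5.45 in NPD. Krt8 and Krt18, the keratin pair of simple epithelia, were among the 16, by log2 differences of 2.18 and 2.13. Both were chosen after their values were seen, as a contrast to Krt7 and Krt19.

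Secretion, transport and cilium genes were mixed: of 16, 13 were tested, 5 were higher and 1 lower in normal cBEC than in NPD, and after PH 9 of 14 tested were higher and 3 lower. Of all genes, 29.7% were called in normal liver and 44.8% after PH. The median log2 difference in normal liver was 0.84 against 0.25 over all genes. Pkhd1, the gene of a ciliary protein mutated in recessive polycystic disease, averaged 158 ± 26.3 FPKM in cBEC (SD, n = 4) and 13.6 ± 4.22 in NPD (SD, n = 2). The glucose transporter Slc5a1 averaged 152 ± 42.0 and 21.7 ± 0.94, and the bile acid transporter Slc10a2 10.2 ± 7.52 and 0.35 ± 0.50. The water channel Aqp1, made by cholangiocytes, mesothelium and endothelium, was lower, at 146 ± 207 FPKM in cBEC against 1262 ± 19.7 in NPD (log2 difference −4.06, SE 1.15, limma adjusted p = 0.0481).

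Among 12 genes used as markers of clonogenic or progenitor-like duct cells, 10 were tested, and 4 were higher and 2 lower in normal cBEC than in NPD, with 5 higher and 4 lower after PH, where 29.7% and 44.8% of all genes were called. Their median log2 difference in normal liver was 0.64 against 0.25 over all genes. Dcdc2a averaged 124 ± 31.5 FPKM in cBEC (SD, n = 4) and 14.7 ± 1.68 in NPD (SD, n = 2), and St14, a membrane serine protease, 97.7 ± 11.7 and 11.9 ± 0.45. Tnfrsf12a, the receptor for the cytokine TWEAK, averaged 194 ± 54.0 and 43.6 ± 27.3. The Wnt target Axin2 was lower, at 1.20 ± 0.50 against 7.58 ± 0.65 FPKM. Between cBEC and BEC, 0 genes of any of these 4 lists passed the test in either treatment.

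Cftr had the largest change with PH of the 9 genes in cBEC and in BEC. In cBEC it read 13.2 to 22.5 FPKM in normal liver and 35.9 and 50.3 after PH, and in BEC 16.1 to 25.1 and then 43.3 and 51.3. Both PH libraries lay above every normal library in each sort, PH cBEC 1 included. In NPD it read 15.9 and 14.2 in normal liver and 9.78 and 8.42 after PH, and in Thy1 cells 6.32 and 7.09 and then 1.99 and 1.31, so the PH libraries were the lower ones in both sorts. The mean after PH was 2.47 times normal in cBEC, 2.13 times in BEC, 0.60 times in NPD and 0.25 times in Thy1.

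Of the 9 genes, Cftr alone was called for PH minus normal, in BEC (log2 difference 1.07, SE 0.21, limma adjusted p = 0.0459), where 1.81% of 12851 genes were called. This call was lost without normal BEC library 1 or 4 or either PH BEC library (limma adjusted p 0.0713, 0.0757, 0.242 and 0.418). In cBEC, 0 of 9 were called, where 0.0681% of genes were, and the Cftr change of 1.26 (SE 0.24) had a limma adjusted p of 0.188. The number of all genes called there, 9, was 100 without normal cBEC library 1, 21 without library 3, 16 without library 4, 4 without PH cBEC library 2 and 535 in a fit of all 20 groups. The Cftr change in cBEC had an adjusted p of 1.85e-05 in a limma fit of all 20 groups and 0.0161 in one of the 6 duct groups. The fit of all 20 groups takes its spread also from sorts with hardly any Cftr. In NPD, 0 of 9 were called, where 15.2% of genes were, with Cftr at −0.67 (SE 0.19, limma adjusted p = 0.0709). In Thy1, 0 of the 8 tested were called, where 0.00747% of genes were, with Cftr at −1.55 (SE 0.35, limma adjusted p = 0.166), and 1749 genes were called there in the fit of all 20 groups in place of 1. At an unadjusted p under 0.05, limma gave 1346 genes in cBEC, 4426 in NPD and 2417 in Thy1.

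The responses themselves were compared in a single limma fit of all 20 groups. Its estimate of the spread was shared by all groups, among them 6 sorts where Cftr was at most 0.86 FPKM. The p-values of this fit therefore do not measure the spread between the compared duct libraries alone. The Cftr response was higher in cBEC than in NPD by 1.94 on the log2 scale (SE 0.27, limma adjusted p = 3.95e-06), where 3.79% of 16527 genes were called, and higher in BEC than in NPD by 1.74 (SE 0.27, limma adjusted p = 2.48e-05), where 4.37% were called. These 2 comparisons share the NPD libraries. With a pseudocount of 0.1 the differences were 2.03 and 1.83 and neither passed (limma adjusted p 0.0841 and 0.122). With any library of the compared groups left out they ranged from 1.70 to 2.17 for cBEC and from 1.60 to 1.86 for BEC, and all passed. The other 8 genes gave no call in any response comparison. Between cBEC and BEC, 0 of 9 responses differed, where 0.0121% of genes did (2 genes, with 413 at an unadjusted p under 0.05).

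**Figure D4:**
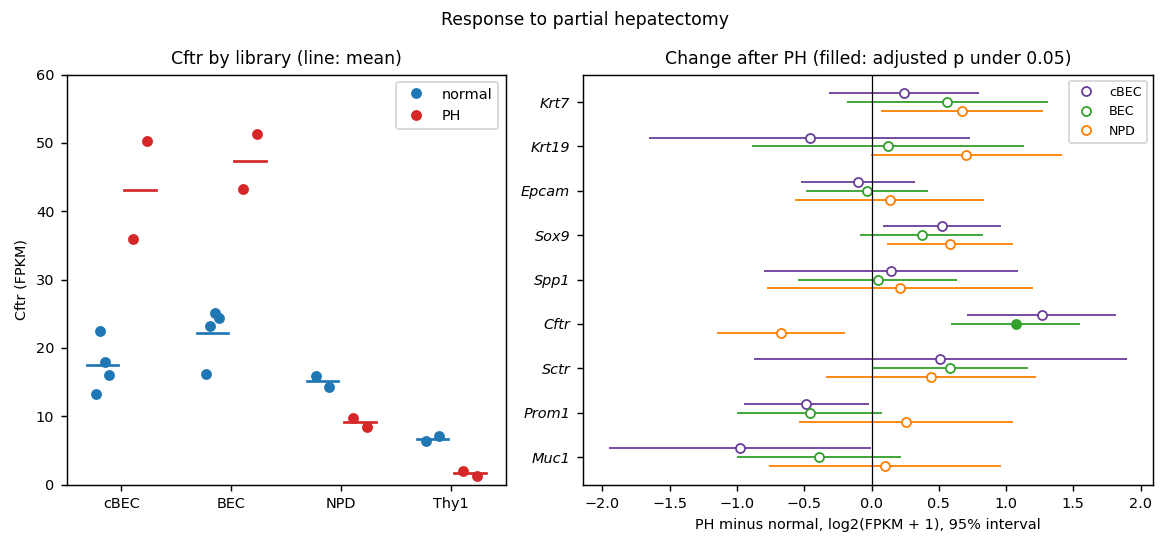
Left, Cftr FPKM in each library of 4 sorts, blue normal and red PH, with a line at each mean. Right, PH minus normal in log2(FPKM + 1) with 95% intervals for the 9 genes in cBEC, BEC and NPD; Cftr in BEC is the filled point, at 1.07, and Cftr in NPD lies at −0.67.

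In cBEC and BEC the other 8 genes had smaller log2 differences than Cftr, whereas in NPD those of the keratins were as large as that of Cftr. Sox9 read 159 and 191 FPKM in PH cBEC, 147 and 189 in PH BEC and 28.6 and 23.2 in PH NPD, above all normal libraries of the same sort in each case, with log2 differences of 0.53, 0.37 and 0.58 (limma adjusted p 0.443, 0.420 and 0.0924). Prom1 lay below all normal libraries in PH cBEC and PH BEC, with log2 differences of −0.48 and −0.46 (limma adjusted p 0.483 and 0.395). Muc1 did so in PH cBEC, at −0.98 (limma adjusted p = 0.489). In NPD the keratins read higher after PH without overlap, by 0.67 for Krt7 and 0.70 for Krt19 (limma adjusted p 0.119 and 0.150). The mesothelial marker sum was lower there, but the markers Upk1b and Aldh1a2 read higher without overlap. Sctr, the upstream receptor of Cftr, read 41.1 and 19.3 FPKM in PH cBEC and 38.8 and 24.6 in PH BEC, overlapping the normal libraries, with log2 differences of 0.51 and 0.58 (limma adjusted p 0.777 and 0.303).

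Of the 4 lists by role, 0 genes were called for PH minus normal in cBEC, and Aqp1 alone in BEC, at a log2 difference of −4.54 (limma adjusted p = 0.0213). In NPD, 8 of the 51 tested genes of the lists were called (15.7%), a share near the 15.2% of all genes, so the calls that follow are values of single genes and say nothing of the lists. There, 3 genes of epithelial structure were higher, on the log2 scale, Krt8 by 2.02, Krt18 by 1.63 and Cldn6, a claudin, by 1.13. Among progenitor-related genes in NPD, Cd44, a hyaluronan receptor, and Tnfrsf12a were higher by 3.51 and 2.68, and Igdcc4 differed by −1.35. Gpbar1, a bile acid receptor, was higher by 2.57 and Aqp1 differed by −1.82. Without either PH NPD library, 0 genes passed in NPD. Apart from Tnfrsf12a and Aqp1, these genes were named because so few passed, after their values were seen. Markers of other cells differed with PH in the same sorts, where 202 of 12851 tested genes in BEC and 717 of 13024 in NPD were called lower. The 10 Kupffer cell markers summed to 231 to 455 FPKM in normal NPD and 42.0 to 51.7 in PH NPD, and to 191 to 556 in normal BEC and 46.6 to 53.2 in PH BEC, with 9 of 10 called lower in each. In BEC the 10 endothelial markers summed to 83.1 to 249 FPKM in normal liver and 18.0 to 19.4 after PH (6 of 10 called lower), and the 10 sinusoidal endothelial markers to 128 to 475 and 10.5 to 14.5 (8 of 10 called lower). In NPD the 10 stellate cell markers summed to 3296 to 3833 and 1292 to 1380 FPKM (3 of 8 tested called lower). Their part in these changes was not tested.

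Likeness was measured as Pearson's r of log2(mean FPKM + 1) over the 20 group means, which share libraries and the same split between duct and other sorts. Krt7 was most like Krt19 (r = 0.988), followed by Sema3c and Arhgap44, and r between Krt7 and the other 7 members was 0.740 to 0.846. Slc44a3 (0.995) and Prss8 (0.994) were among the 3 genes most like Sox9. Sctr was most like Grhl2 (0.998), Epcam like Ddit4l (0.993), Spp1 like Spint1 (0.979) and Cftr like Scx (0.986). Prom1 was most like Slc5a1 (0.997) and Muc1 like Prom1 (0.995). Next in order came Ehf and Spint1 for Epcam, Scara3 and Anxa13 for Spp1, Bex1 and Cldn7 for Cftr, Macc1 and Mtcl1 for Sctr, Muc1 and Ddit4l for Prom1, and Cnksr1 and Kif12 for Muc1.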

How the data were processed

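Expression came from 1 deposited table of FPKM values that the authors computed, with 36141 RefSeq transcript rows and a column for each of the 55 libraries; 0 sample columns lacked a matching title. FPKM is the unit in the table's name, and its column headers give none. CASAVA 1.8.2, Bowtie 1.0.0 and the build mm9 are named, without a role, in the submitters' processing notes, and the counting tool and annotation are not given in the sources used here. FPKM hold no read totals, so depth is unknown and counting intervals could not be computed. The values of a library summed to 624726 to 1203197 over all transcript rows. Outside the hepatocyte columns, many hepatocyte transcripts are listed at 0. Table starts count from 0, since 9425 transcript spans equal the RefSeq length that way and 465 the other way, and are printed from 1.

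Two-sided fits of log2(FPKM + 1) used R 4.3.3 and limma 3.58.1, with trended and robust variances, on genes with at least 1 FPKM in as many libraries as the smallest compared group. Pairs and PH minus normal used only the compared groups, and responses and comparisons with non-duct sorts used all 20. When 200 genes of a simulated table were given a log2 change of 2, 143 were recovered for normal cBEC minus NPD (13757 genes), 115 for the PH pair (13033), 142 for PH minus normal in cBEC (13225), 60 in NPD (13024) and 139 for the cBEC minus NPD response (16527). Python 3.11.15, pandas 2.3.3 and matplotlib 3.10.9 were used for the rest.

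The 9 genes and all lists were chosen with earlier results of these data known. From each list the text names up to 4 genes with the largest difference between normal cBEC and NPD among those called without overlap, and for each of the 9 genes the 3 of most like pattern with at least 10 FPKM in a group, 1 of which is not reported here. In the lists, Tf was read as Trf and Nope as Igdcc4, and Muc16 was not matched. Markers of endothelium, sinusoidal endothelium, stellate cells, leukocytes and hepatocytes were also summed: in normal NPD and cBEC these were 336 to 387 and 37.8 to 290 FPKM, 26.9 to 235 and 14.5 to 184, 3296 to 3833 and 325 to 590, 1.59 to 20.4 and 0.044 to 10.0, and 379 to 414 and 0 to 858. In normal NPD, 9 of the 10 hepatocyte markers were listed at 0 and Trf alone was not.

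Same-numbered libraries of different sorts were not treated as paired. Correlations over genes of their deviations from the group means were −0.301 to 0.135, except 0.39 for PH cBEC with PH BEC. The other PH comparisons, also of 2 pairs, gave 0.0307 and 0.0905. The labels do not say whether same-numbered PH cBEC and PH BEC libraries belong together. If they do, the unpaired fit of that comparison gives intervals that are too wide. Alternatives were a pseudocount of 0.1, no filter, upper-quartile and quantile scaling, a replicate block, pooled fits and leaving out each library.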

Additional observations from a re-analysis of the deposited data

Results flagged for a closer look

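Among 45 sets of a gene's values in 1 group of at least 4 libraries, 2 held an extreme library, and chance gives about 1 such set in 20. Sox9 in normal cBEC library 1 read 99.2 FPKM, below the 126 to 131 of the other 3. Sctr in PH LSEC library 5 read 0.080 FPKM, where the other 4 libraries were listed at 0. The Cftr response to PH differed between sorts by the test of the difference itself, by 1.94 on the log2 scale for cBEC minus NPD and by 1.74 for BEC minus NPD.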

How the results depend on the processing

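Counts of the 9 genes called kept within 1.5 times in 242 of 261 alternatives. With a replicate block, 2 of 9 were called for PH minus normal in BEC (1027 genes in all against 232), and the other comparisons kept their count of the 9. Without the filter or with quantile scaling that count was 0 (53 and 59 genes). PH minus normal in cBEC gave 1 in the fits of all 20 and of the 6 duct groups, in Thy1 1 in the fit of all 20, and in NPD 1 with upper-quartile scaling, 3 with quantile scaling and 1 in the fit of all 20. Both Cftr response counts were 0 with a pseudocount of 0.1. Leaving out libraries gave 4 to 9 for PH cBEC minus NPD, 0 to 2 for PH minus normal in BEC and 0 to 2 in NPD. Signs turned, without a call, for Cftr in normal cBEC minus NPD with upper-quartile (−0.042) and quantile scaling (−0.044), for Krt19 there with quantile scaling (0.088), the block (0.015) and when libraries were left out (−0.668 to 0.0297, the highest without normal NPD library 1), and for Krt7 after PH in cBEC when libraries were left out (−0.0045 to 0.487, the lowest without PH cBEC library 1). Krt19 after PH was not called in the fit of all 20 groups (adjusted p 0.164 for cBEC and 0.160 for BEC, limma). Genes called moved by over 1.5 times in normal cBEC minus NPD (4085; 2087 without a library, 2529 with the block), PH BEC minus NPD (7510; 2860 to 6948 without a library), PH minus normal in NPD (1974; 0 to 5419 without a library), in BEC (232; 20 to 379 without a library), in cBEC (9; 4 to 100 without a library, 61 with the block, 106 in the fit of the 6 duct groups, 535 in the fit of all 20) and in Thy1 (1; 0 without a library, 485 with the block, 1749 in the fit of all 20). The cause was not tested. Leaving out genes that reach 10 FPKM in hepatocytes, Spp1 among them, and the fit of the 6 duct groups for responses were chosen after seeing the data. Each group's 2 to 5 libraries and an unknown depth limit all of these values.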
